A study of Mus musculus with 19 samples.

Results

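The imprinted genes were taken as a list of 40 genes that are known in mouse to be transcribed from 1 parental copy in at least some tissues. Each gene was followed through the probe sets that name it alone, and its value on an array was the mean of their log2 intensities. Of the 40 genes, 33 were measured, through 410 probe sets (2 to 48 per gene), among 15781 measured genes in all. No probe set was annotated to Kcnq1ot1, Zim1, Peg10, Mest, Nnat or Zrsr1 alone, and Snrpn had only 2 probe sets that it shares with Snurf, so these 7 genes were left out. Airn, the long noncoding RNA of the Igf2r domain, was found through 2 probe sets under its older name D17Ertd663e. As textbook background, 13 of the measured genes are transcribed from the maternal copy and 16 from the paternal copy where they are imprinted. For the other 4 (Ube3a, Grb10, Ddc and Gnas) the copy depends on tissue or promoter. Whether a gene is imprinted in these progenitors was not measured. The arrays do not separate the copies, so every value is the RNA of both.

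Imprinted genes lie in clusters, and each cluster is steered by a control region whose cytosines were methylated in only 1 of the parental germ cells. Dnmt3a, a DNA methyltransferase that places new methyl groups, sets many of these marks in germ cells together with its cofactor Dnmt3l, while Dnmt1 copies them at each cell division. In blood, imprinted genes such as H19, Igf2, Cdkn1c, Dlk1, Meg3 and Grb10 have been studied mostly in stem cells and are best known as regulators of growth and quiescence.

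The study sorted myeloid progenitors from mouse bone marrow, either common myeloid progenitors (CMP) or the granulocyte-monocyte progenitors (GMP) that descend from them, and by its title asks whether leukaemia driven by the PML-RARA fusion needs Dnmt3a. From C57Bl/6J mice came wild-type CMP on 3 arrays and wild-type GMP on 4, and Dnmt3a-/- cells of either type on 3 each. GMP of PR+/- mice were run on 2 arrays and GMP of PR+/- Dnmt3a-/- mice on 4, and their labels name no strain and give the cell type in the title alone. PR is read here as the PML-RARA fusion. How Dnmt3a was deleted, in which cells and at which stage, what drives PR, the sort gates and the age of the mice are not given in the sources used here. It is not stated either that replicates are separate mice, so every p-value below reflects the spread among these samples alone, which may be technical. In sorted populations, fewer cells of a type and less RNA per cell cannot be told apart.

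Some arrays differed in ways that bear on single genes. The array medians lay between 53.0 and 56.8 intensity units. Dnmt3a was lower in all Dnmt3a-/- arrays, with a difference of -1.04 ± 0.14 (SE) in CMP and -1.31 ± 0.13 in GMP on the log2 scale. Of 4 measured primary granule genes, which mark GMP, the mean level was 9.75, 11.40 and 11.37 in wild-type CMP and 11.76 or more in wild-type GMP. The 13 measured immediate early and heat shock genes stood at 8.89 in wild-type CMP replicate 1, at 7.67 and 7.71 in wild-type GMP replicates 1 and 2, and at 8.74 and 8.55 in PR+/- Dnmt3a-/- replicates 1 and 2, against 5.93 to 7.16 in the other 14 arrays. The 2 measured Y-linked genes were at 3.25 or less in all 6 Dnmt3a-/- arrays and in 1 array each of PR+/- Dnmt3a-/- GMP and of wild-type GMP and CMP. Stromal and endothelial genes stood at 4.10 to 4.68 and T and NK cell genes at 3.16 to 3.74 in every array.

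Most of the list was weakly expressed in these progenitors. With no measure of detection in the table, the level under which 90% of 943 olfactory and vomeronasal receptor genes lay, 4.15 on the log2 scale, was taken as background, and 70.9% of all genes had a mean above it. By that measure 16 of the 33 imprinted genes were above background in every group, 7 in some groups and 10 in none. The 10 genes were Asb4, Ddc, Dio3, Mkrn3, Nap1l5, Peg3, Rtl1, Sgce, Slc38a4 and Usp29. The measure is lenient, because 16 of 27 genes known from other tissues also had a mean level above it, with a 75th percentile of 5.04. Several imprinted genes therefore lay where such genes lie: the group means of Igf2, a fetal growth factor, were 4.49 to 4.78, those of the zinc finger gene Plagl1 4.40 to 4.70 and those of Phlda2, a growth-limiting gene of the placenta, 4.42 to 5.12. Clearly above it in all groups were Cd81, Gnas, Ube3a, Peg12, Slc22a3 and Impact, whose lowest group means were 9.68, 6.97, 7.23, 6.48, 5.47 and 5.72. Grb10, Tssc4, Slc22a18 and Cdkn1c had lowest group means of 5.20, 6.41, 5.6 and 5.30.

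Slc22a3, Grb10 and Ndn carried 3 of the differences described next, and the 250 bases before their transcription starts are shown because CpG dinucleotides, the substrate of Dnmt3a, stand in capitals in them. The sequences are from RefSeq on build GRCm38.p6 and read 5′ to 3′ on the strand of the gene, at chr17:12507705-12507954 (minus strand) for Slc22a3, chr11:12037421-12037670 (minus strand) for Grb10 and chr7:62348027-62348276 (plus strand) for Ndn.
Slc22a3: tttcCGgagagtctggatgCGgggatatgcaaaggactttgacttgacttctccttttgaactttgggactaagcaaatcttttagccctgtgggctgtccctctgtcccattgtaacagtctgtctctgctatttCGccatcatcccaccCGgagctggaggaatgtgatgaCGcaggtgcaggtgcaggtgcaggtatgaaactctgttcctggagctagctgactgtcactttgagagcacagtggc
Grb10: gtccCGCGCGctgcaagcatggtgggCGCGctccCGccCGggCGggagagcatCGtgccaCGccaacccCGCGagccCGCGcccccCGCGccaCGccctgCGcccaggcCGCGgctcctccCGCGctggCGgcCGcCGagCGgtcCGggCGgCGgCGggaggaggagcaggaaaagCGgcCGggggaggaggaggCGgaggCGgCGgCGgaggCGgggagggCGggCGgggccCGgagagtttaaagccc
Ndn: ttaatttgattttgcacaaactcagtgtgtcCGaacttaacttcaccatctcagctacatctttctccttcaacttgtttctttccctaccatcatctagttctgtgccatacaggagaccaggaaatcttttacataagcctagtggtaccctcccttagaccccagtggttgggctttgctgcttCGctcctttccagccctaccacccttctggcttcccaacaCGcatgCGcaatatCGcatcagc
Each window belongs to the first listed start of its gene, and Grb10 has 2 listed starts while Slc22a3 and Ndn have 1 each. The Slc22a3 and Ndn windows hold 5 CpG each and this Grb10 window 40. The median was 12 over the 12609 measured genes with such a window and 10 over the 27 measured imprinted genes with one, where it ranged from 0 to 40. The hexamer TGCCGC, part of the recognition sequence of the imprint-keeping factor Zfp57, was found on either strand in 3 of those 27 windows (11.1%) and in 11.1% of the windows of all measured genes. Methylation was not measured on these arrays, and imprint control regions often lie outside such windows.

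Without Dnmt3a, the median difference of the imprinted genes was near that of all genes in CMP and in GMP. A shift of the list as a group was not tested. In CMP, none of the 33 passed the threshold (limma adjusted p under 0.05 over all 15781 genes), where 1.28% of all genes did, and 2 were higher and 2 lower at an unadjusted p under 0.05 (13.7% of all genes). In GMP none passed either, against 1.33% of all genes, and 3 were higher and 3 lower at an unadjusted p under 0.05 (18.9% of all genes). The median difference of the 33 genes was 0.03 in CMP and -0.07 in GMP, beside -0.04 and -0.07 over all genes. For 5 of the 33 genes in CMP (23.1% of all genes) and for 6 in GMP (16.6% of all genes) no array of one genotype lay within the range of the other. In CMP these were Slc22a3, Peg12 and Meg3 on the higher side and H19 and Sgce on the lower. In GMP they were Cd81, Tssc4 and Grb10 on the higher side and Ndn, Magel2 and Plagl1 on the lower, so no gene was on both lists. Averaged over both cell types, 1 imprinted gene rose and 1 fell, while 5.75% of all genes passed (3.54% higher and 2.21% lower). No imprinted gene passed the test of whether the Dnmt3a-/- difference was unlike in GMP and CMP (0% of all genes), and 1, Cd81, had an unadjusted p under 0.05 there (6.86% of all genes).

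**Figure D1:**
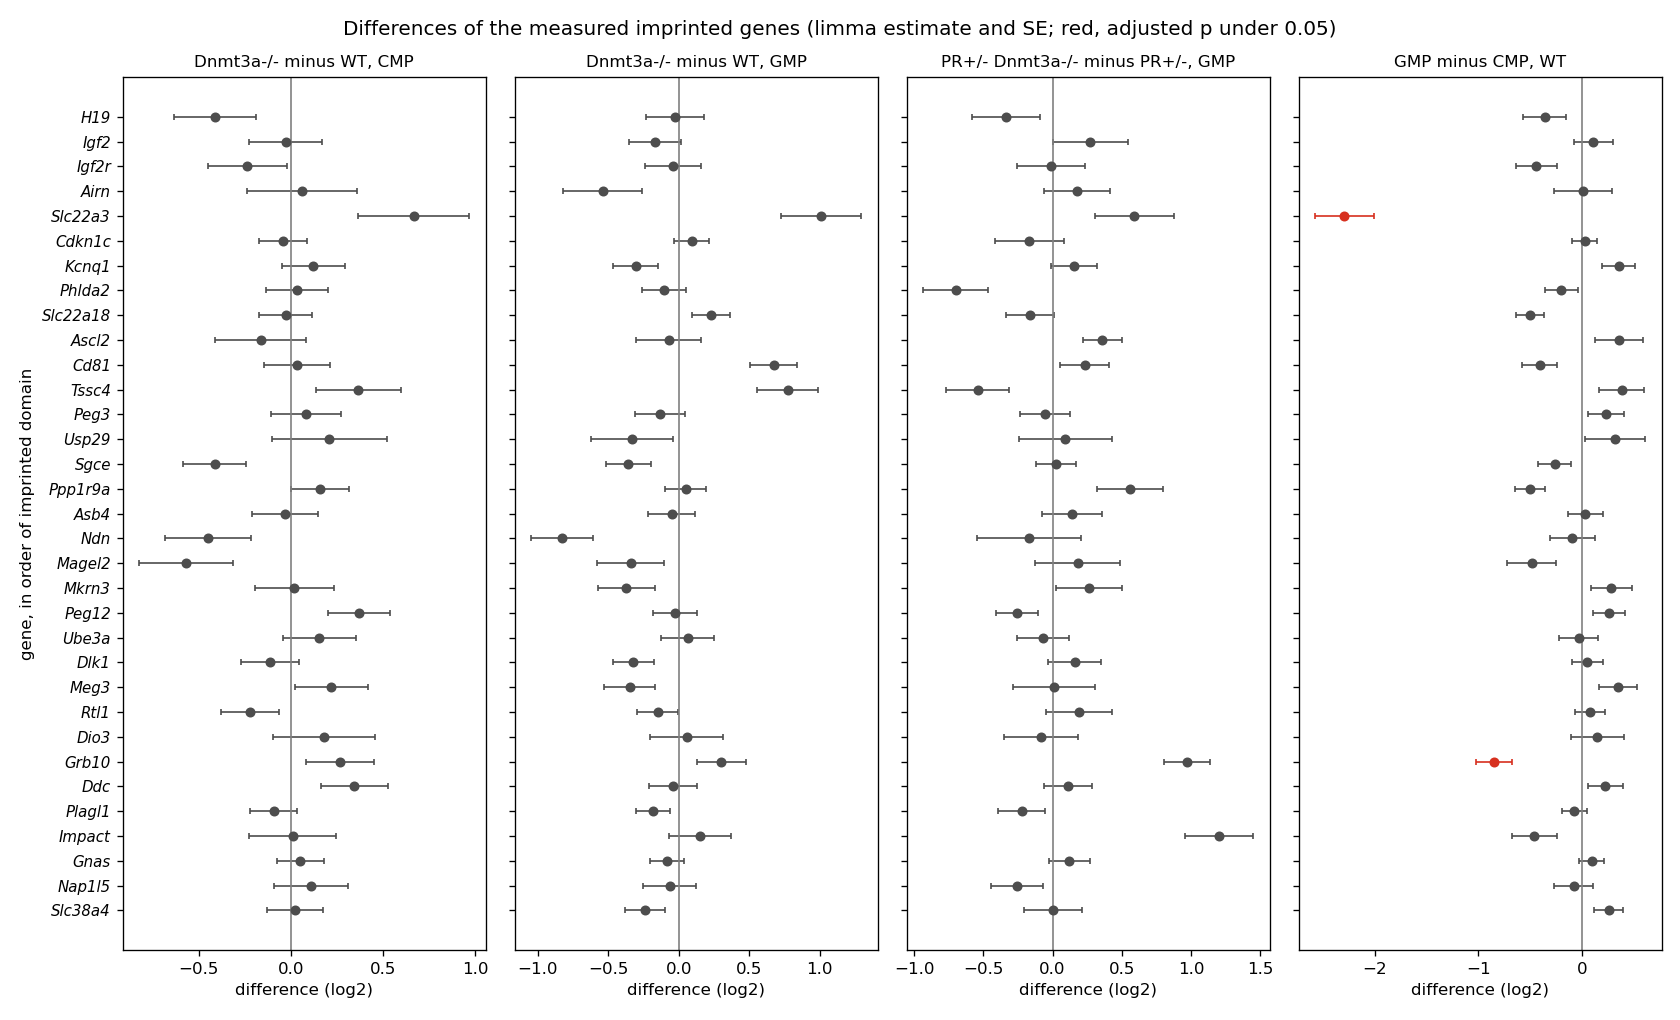
Differences between groups for the 33 measured imprinted genes, in order of their domains, on the log2 scale (points, limma estimates; bars, SE; red, adjusted p under 0.05). In the 3 Dnmt3a-/- panels no gene is red, and in the panel of GMP against CMP of the wild type Slc22a3 and Grb10 are.

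The gene that rose was Slc22a3, a transporter of organic cations and monoamines and a neighbour of Igf2r that is listed as maternally expressed. In CMP its log2 level was 7.94, 7.77 and 7.57 in the wild type and 8.49, 8.37 and 8.42 in Dnmt3a-/-. In GMP it was 5.40, 6.10, 5.31 and 5.07 in the wild type and 7.04, 6.68 and 5.72 in Dnmt3a-/-. All Dnmt3a-/- CMP lay above all wild-type CMP, while in GMP the lowest Dnmt3a-/- array lay below the highest wild-type array. The difference was 0.67 ± 0.30 (SE) in CMP (adjusted p = 0.355) and 1.01 ± 0.28 in GMP (adjusted p = 0.0961), and 0.84 ± 0.21 when averaged over both (1.79-fold, adjusted p = 0.0361). Among its 14 probe sets, 13 were higher in Dnmt3a-/- CMP and 11 in Dnmt3a-/- GMP. The call of the average was lost when any 1 of 10 of the 13 arrays was left out, with adjusted p up to 0.0897. It held without wild-type CMP replicate 1, wild-type GMP replicate 2 or Dnmt3a-/- GMP replicate 3.

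The other members of that domain did not move with Slc22a3. The group means of Igf2r, the receptor that clears insulin-like growth factor 2, were 4.10 to 4.63, and its difference was -0.24 ± 0.21 in CMP and -0.04 ± 0.20 in GMP. For Airn, whose transcription silences the domain on the paternal copy in other tissues, the levels in GMP were 4.40, 5.64, 4.73 and 4.80 in the wild type and 4.69, 3.91 and 4.47 in Dnmt3a-/-, which overlap. In CMP they were 5.24, 4.87 and 4.54 in the wild type and 5.06, 4.62 and 5.15 in Dnmt3a-/-, which overlap as well. The difference of Airn was 0.06 ± 0.30 in CMP and -0.54 ± 0.28 in GMP (adjusted p = 0.961 and 0.314). Its 2 probe sets disagreed in GMP, with differences of -1.15, without overlap of the genotypes, and 0.07.

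Markers of several cell types differed between the genotypes as well, those of megakaryocytes and platelets in the same groups as Slc22a3. The mean level of the 10 measured of 12 such genes was 6.13 to 6.38 in wild-type CMP, 7.55 to 7.92 in Dnmt3a-/- CMP, 4.86 to 5.53 in wild-type GMP and 5.88 to 6.48 in Dnmt3a-/- GMP, and 9 or 10 of the 10 genes were above background in each of these groups. The 10 measured dendritic cell genes stood at 5.97 to 6.47, 7.65 to 8.35, 4.61 to 5.18 and 6.03 to 6.31 in the same 4 groups, and the 19 measured stem and multipotent progenitor genes at 6.08 to 6.32, 6.53 to 6.66, 5.13 to 5.49 and 5.38 to 5.46. The 11 measured neutrophil maturation genes, all above background in every group, were higher without Dnmt3a in both cell types. They stood at 8.56 to 8.85 in wild-type and 9.59 to 11.05 in Dnmt3a-/- CMP, and at 8.61 to 8.97 in wild-type and 9.78 to 10.94 in Dnmt3a-/- GMP. The 9 measured monocyte and macrophage genes were lower, at 7.39 to 7.62 against 6.59 to 6.98 in CMP and 7.77 to 8.01 against 7.16 to 7.41 in GMP. In GMP alone, the 8 measured basophil and mast cell genes were higher without overlap (6.67 to 7.12 against 7.88 to 8.40), and so were 4 measured eosinophil genes (6.58 to 7.95 against 8.08 to 8.26) and the primary granule genes (medians of 11.89 and 12.17). The 12 measured stromal and endothelial genes, of which 6 or 7 were above background, were lower there (4.29 to 4.43 against 4.10 to 4.28). In CMP the primary granule genes stood at 9.75, 11.40 and 11.37 in the wild type and at 9.64 to 9.76 in Dnmt3a-/-. These groups overlap only through wild-type replicate 1. The part of these markers in the differences of Slc22a3, Ndn, Cd81, Tssc4 and the other imprinted genes was not tested.

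The gene that fell was Ndn (necdin), a paternally expressed inhibitor of cell growth that has been linked to the quiescence of blood stem cells. Its group means, 3.75 to 4.67, all lay under 5.04, the 75th percentile of the genes known from other tissues. In CMP its level was 4.24, 4.66 and 5.12 in the wild type and 4.39, 4.15 and 4.14 in Dnmt3a-/-, and in GMP 4.74, 4.42, 4.46 and 4.71 against 3.60, 3.43 and 4.23. The genotypes overlap in CMP and not in GMP, where the mean of the Dnmt3a-/- arrays, 3.75, was below the background level. The difference was -0.45 ± 0.23 in CMP (adjusted p = 0.434) and -0.83 ± 0.22 in GMP (adjusted p = 0.0786). Against the background level the fall in GMP was at least 0.43. Averaged over both cell types it was -0.64 ± 0.16 (adjusted p = 0.0378). Ndn rests on 2 probe sets, of which 1 was above background, and that probe set differed by -0.12 in CMP and -0.91 in GMP. The call was lost when any 1 of 9 of the 13 arrays was left out, with adjusted p up to 0.0958, and held without wild-type CMP replicate 1, wild-type GMP replicate 2 or 3, or Dnmt3a-/- GMP replicate 3. Both calls, of Ndn and of Slc22a3, were also lost with the Y-linked level as a covariate (adjusted p = 0.0772 and 0.126), where the differences were -0.98 and 1.14, and with adjacent Dnmt3a-/- arrays as a random block (adjusted p = 0.0541 and 0.0518). The Y-linked level was low in every Dnmt3a-/- CMP and GMP array and in few wild-type arrays. The fit with that covariate therefore separates it poorly from genotype.

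Ndn lies in the domain of Snrpn and Ube3a, whose other paternal genes were dim or did not pass the threshold. Magel2, a relative of Ndn that acts in protein sorting, was at 4.96, 5.26 and 5.17 in wild-type CMP and 4.58, 3.92 and 5.18 in Dnmt3a-/- CMP, groups that overlap through the third Dnmt3a-/- array (-0.57 ± 0.25, adjusted p = 0.344). In GMP, Magel2 was at 4.95, 4.73, 4.48 and 4.42 in the wild type and at 4.37, 4.13 and 4.41 in Dnmt3a-/- (-0.34 ± 0.24, adjusted p = 0.448). The ubiquitin ligase gene Mkrn3 had no group mean above background, and Peg12, a relative of the GSK3-binding Frat genes, differed by 0.37 ± 0.17 in CMP and -0.03 ± 0.16 in GMP. Ube3a, a ubiquitin ligase that is imprinted in neurons, differed by 0.15 ± 0.20 and 0.06 ± 0.19.

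Within the Kcnq1 domain, 2 genes that lie next to each other, Cd81 and Tssc4, had their widest Dnmt3a-/- differences in GMP. Cd81 encodes a tetraspanin of the cell surface that is imprinted in the placenta. Its level was 9.82, 9.79, 9.61 and 9.50 in wild-type GMP and 10.21, 10.26 and 10.59 in Dnmt3a-/- GMP, with all Dnmt3a-/- arrays above all wild-type arrays. In CMP it was 10.51, 9.94 and 9.82 against 10.15, 10.07 and 10.15, groups that overlap. The difference was 0.67 ± 0.17 in GMP (adjusted p = 0.0692) and 0.03 ± 0.18 in CMP (adjusted p = 0.961), and the difference between these 2 values, 0.64 ± 0.25, did not pass the threshold (adjusted p = 0.607). All 12 Cd81 probe sets were higher in Dnmt3a-/- GMP, 11 of them without overlap of the genotypes, and 7 of 12 were higher in Dnmt3a-/- CMP.

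Tssc4, whose product helps to assemble the spliceosome, was at 6.16, 6.94, 7.13 and 6.94 in wild-type GMP and at 7.52, 7.52 and 7.66 in Dnmt3a-/- GMP, again without overlap. In CMP it was at 6.02, 6.71 and 6.50 in the wild type and at 6.79, 6.83 and 6.71 in Dnmt3a-/-, where the lowest Dnmt3a-/- array and the second wild-type array were both at 6.71. The difference was 0.77 ± 0.21 in GMP (adjusted p = 0.0947), 0.37 ± 0.23 in CMP (adjusted p = 0.532) and 0.57 ± 0.16 averaged over both (adjusted p = 0.0511). The averaged difference passed the threshold in 9 of the 24 alternatives tried, with adjusted p from 0.0103 to 0.411 over all of them. All 6 Tssc4 probe sets were higher in Dnmt3a-/- GMP and 5 of 6 in Dnmt3a-/- CMP. The other 5 measured genes of the domain differed by -0.30 to 0.23 in both cell types, and none passed. They were Cdkn1c, an inhibitor of cyclin-dependent kinases that keeps blood stem cells quiescent, the potassium channel gene Kcnq1, Phlda2, the transporter gene Slc22a18 and the transcription factor gene Ascl2. For Cdkn1c, the differences were -0.04 ± 0.13 in CMP and 0.09 ± 0.12 in GMP.

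**Figure D2:**
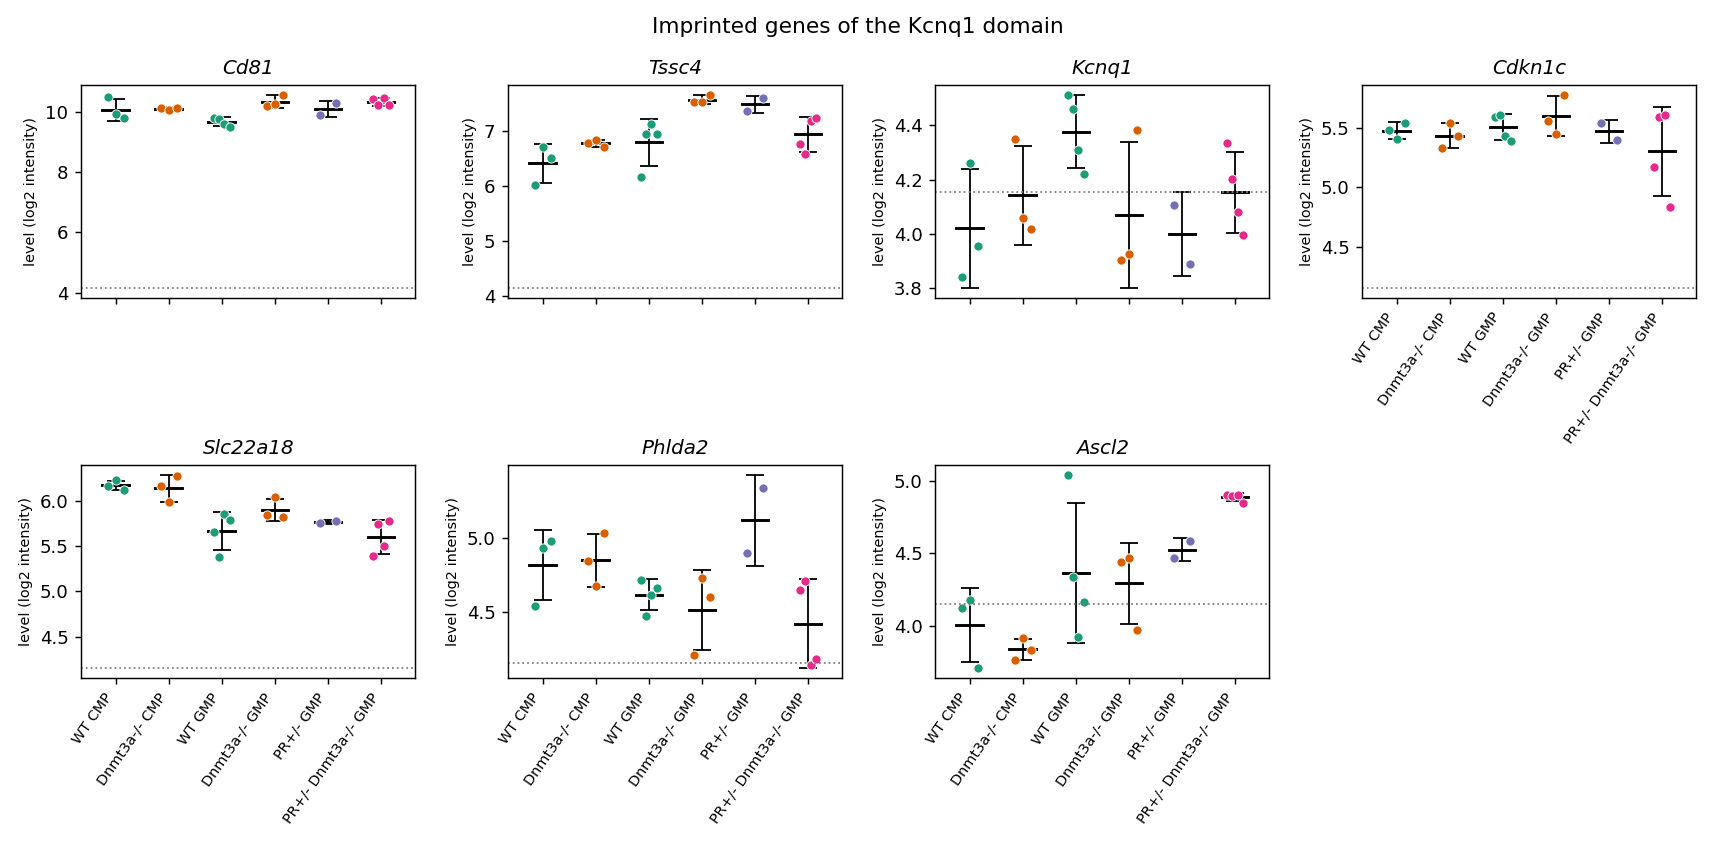
Log2 level of the 7 measured imprinted genes of the Kcnq1 domain on each array by group (points), with the group mean (bar) and SD (whiskers); the dotted line is the background level of 4.15 and the vertical scale differs between genes. Cd81 and Tssc4 show Dnmt3a-/- GMP above wild-type GMP without overlap, while Kcnq1 and Ascl2 lie around the dotted line.

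Growth regulators that are studied most in stem cells were near background or did not pass the threshold. H19, the noncoding RNA of the Igf2 domain, was at 4.29, 4.47 and 4.15 in wild-type CMP and 3.96, 3.94 and 3.78 in Dnmt3a-/- CMP. These do not overlap, but the Dnmt3a-/- mean of 3.89 is below background. The difference was -0.41 ± 0.22 (adjusted p = 0.454), and at least 0.15 against the background level. Igf2 differed by -0.03 ± 0.20 in CMP and -0.17 ± 0.19 in GMP. In the Dlk1-Dio3 domain, the surface ligand gene Dlk1 differed by -0.11 ± 0.16 and -0.32 ± 0.15. Meg3, the maternally expressed noncoding RNA of that domain, was at 4.0, 4.03 and 4.04 in wild-type CMP and 4.34, 4.31 and 4.07 in Dnmt3a-/- CMP, groups that only just do not overlap. In GMP, Meg3 was at 4.22, 4.65, 4.12 and 4.51 in the wild type and at 4.04, 3.62 and 4.42 in Dnmt3a-/-. Its difference changed from 0.22 ± 0.20 in CMP to -0.35 ± 0.18 in GMP, and the change of -0.57 ± 0.27 did not pass the threshold (adjusted p = 0.746). In either cell type 1 of the group means of Meg3 was below background, and against that level its differences came to at least 0.09 in CMP and 0.22 in GMP. Rtl1 and Dio3 were in no group above background. Sgce (epsilon-sarcoglycan), also below background in all groups, was lower in Dnmt3a-/- CMP without overlap, and averaged -0.39 ± 0.12 (adjusted p = 0.0691).

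Sorted by the copy listed as expressed, 12 of 16 paternal genes had an averaged difference below 0. The other 4 were above, and the median of the 16 was -0.12. Of the 13 maternal genes, 7 were below 0 and 6 above, with a median of -0.04, and all genes had a median of -0.06. The 4 genes whose copy depends on tissue had a median of 0.13, with 3 above 0. In GMP alone, 14 of the 16 paternal genes were below 0, with a median of -0.21, while in CMP 7 were below and 9 above, with a median of 0.01. Over all genes, 58.7% were below 0 in GMP, 57.3% in CMP and 60.4% on average. Only 8 of the 16 paternal genes were above background in any group, and in GMP 7 of these 8 were below 0, as were 7 of the 8 others. Among all genes above background in no group 83.3% were below 0 in GMP, against 50.9% of those above it in 1 or more groups. These are counts of direction without a test, and Ndn is the only paternal gene that passed the threshold.

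The widest difference on the list, that of Slc22a3, was between the cell types. In the wild type, 2 of the 33 genes were lower in GMP than in CMP and none was higher (4.3% of all genes passed, 1.87% higher and 2.43% lower). In Dnmt3a-/- 3 were lower and 1 higher (10.1% of all genes, 5.5% higher and 4.58% lower). Slc22a3 was lower in GMP in both genotypes, with a difference of -2.29 ± 0.28 (SE) in the wild type (4.90-fold lower, adjusted p = 8.59e-04) and of -1.95 ± 0.30 in Dnmt3a-/- (3.85-fold lower, adjusted p = 0.00106). In each genotype every GMP array was below every CMP array, and all 14 of its probe sets were lower in GMP. The call held in every alternative tried and without any 1 array. The megakaryocyte, dendritic cell and stem cell genes listed above were also lower in GMP, as were 9 measured erythroid genes (6.48 to 7.99 in wild-type CMP and 5.07 to 5.64 in wild-type GMP), while primary granule, basophil and eosinophil genes were higher. Their part in the differences between cell types was not tested.

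Grb10, an adaptor protein that dampens insulin and growth factor receptor signals and is maternally expressed outside the nervous system, was lower in GMP as well. It was at 6.05, 6.19 and 5.91 in wild-type CMP and 5.35, 5.20, 5.17 and 5.08 in wild-type GMP, and at 6.26, 5.92 and 6.77 in Dnmt3a-/- CMP and 5.62, 5.37 and 5.52 in Dnmt3a-/- GMP. The cell types do not overlap in either genotype. The difference was -0.85 ± 0.17 in the wild type (adjusted p = 0.0139) and -0.81 ± 0.19 in Dnmt3a-/- (adjusted p = 0.0129), with 19 of 21 probe sets lower in GMP in each. The wild-type call was lost without wild-type CMP replicate 1 or 2 (adjusted p = 0.0527 and 0.0592), and that in Dnmt3a-/- without Dnmt3a-/- GMP replicate 2 or CMP replicate 3 (adjusted p = 0.0594 and 0.0544).

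Calls made in Dnmt3a-/- alone were those of Tssc4, higher in GMP by 0.79 ± 0.23 (adjusted p = 0.0447), and Ppp1r9a, lower in GMP. Ppp1r9a, which encodes an actin-binding scaffold of neurons, was at 4.74, 4.83 and 4.59 in Dnmt3a-/- CMP and 4.17, 4.11 and 4.05 in Dnmt3a-/- GMP. The difference was -0.61 ± 0.16 (adjusted p = 0.0256), and at least 0.57 against the background level, which the GMP mean lay below. In the wild type it was 4.18, 4.67 and 4.83 in CMP and 4.10, 3.99, 4.02 and 4.14 in GMP, a difference of -0.50 ± 0.15 (adjusted p = 0.0820) and of at least 0.41 against the background level. The wild-type difference of Tssc4 was 0.38 ± 0.21 (adjusted p = 0.420). Neither cell type difference was shown to depend on genotype, since the tests of that difference gave adjusted p = 0.896 for Tssc4 and 0.959 for Ppp1r9a. Leaving out any of the 6 arrays ended the Tssc4 call (adjusted p 0.0953 to 0.139). That of Ppp1r9a was lost without any but Dnmt3a-/- CMP replicate 3 (adjusted p up to 0.104).

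Slc22a18, a maternally expressed transporter gene of the Kcnq1 domain, was at 6.16, 6.23 and 6.13 in wild-type CMP and 5.66, 5.38, 5.85 and 5.79 in wild-type GMP. These do not overlap, but the difference of -0.50 ± 0.14 missed the threshold (adjusted p = 0.0586). It passed when all 19 arrays shared 1 fit (adjusted p = 0.0418) or genes under background were dropped (0.0408). In Dnmt3a-/- the difference was -0.24 ± 0.15 (adjusted p = 0.404). Over the 33 genes, the median size of the difference between cell types in the wild type was 0.26, against 0.17 over all genes. In Dnmt3a-/- that size was 0.21, against 0.20 over all genes. By direction, 15 of the 33 were lower in GMP in the wild type (44.2% of all genes). Their median was 0.03, against 0.04 over all genes. In Dnmt3a-/- 24 of the 33 were lower in GMP (51.3% of all genes), with a median of -0.15, against -0.01 over all genes. These directions were not tested.

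In PR+/- GMP, Grb10 was higher and Impact lower than in wild-type GMP, which were 1 call in each direction among the 33 genes (3.07% of all genes passed, 2.19% higher and 0.881% lower). The titles of PR+/- and wild-type samples follow different styles and no label names a batch, so a batch, if there was one, and PR+/- cannot be told apart. Markers of other cell types differed without overlap between the same groups: neutrophil maturation genes stood at 8.61 to 8.97 in wild-type and 9.77 to 9.87 in PR+/- GMP, basophil and mast cell genes at 6.67 to 7.12 and 8.18 to 8.28, and monocyte and macrophage genes at 7.77 to 8.01 and 7.03 to 7.23. Their part in the differences of Grb10 and Impact was not tested. Grb10 was at 6.03 and 6.23 in PR+/- GMP, above all 4 wild-type GMP arrays given earlier, and the difference was 0.93 ± 0.15 (1.91-fold, adjusted p = 0.00572). Of its 21 probe sets 19 were higher, 10 of them without overlap. The call was lost without either PR+/- array (adjusted p = 0.0648 and 0.0614).

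Impact encodes an inhibitor of the Gcn2 kinase, a sensor of amino acid shortage, and is paternally expressed. It was at 6.35, 7.39, 7.12 and 6.77 in wild-type GMP and at 5.54 and 5.90 in PR+/- GMP, which do not overlap. The difference was -1.19 ± 0.29 (2.28-fold lower, adjusted p = 0.0442), and all 14 probe sets were lower in PR+/-. The call was lost without either PR+/- array or without wild-type GMP replicate 2, 3 or 4, with adjusted p up to 0.445, and held without wild-type GMP replicate 1. In Dnmt3a-/- without PR, Impact was at 7.38, 7.41 and 7.34 in CMP, beside 7.58, 7.21 and 7.32 in wild-type CMP, and at 7.17, 7.31 and 6.70 in GMP, within the wild-type range (0.01 ± 0.23 and 0.15 ± 0.22, adjusted p = 0.993 and 0.737).

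Tssc4 was at 7.37 and 7.59 in PR+/- GMP, above all wild-type GMP arrays (0.69 ± 0.25), but did not pass the threshold (adjusted p = 0.176). The difference of Slc22a3 was 0.63 ± 0.37 (adjusted p = 0.418). Groups did not overlap for 10 of the 33 genes, 4 higher and 6 lower in PR+/-, against 28.5% of all genes.

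**Figure D3:**
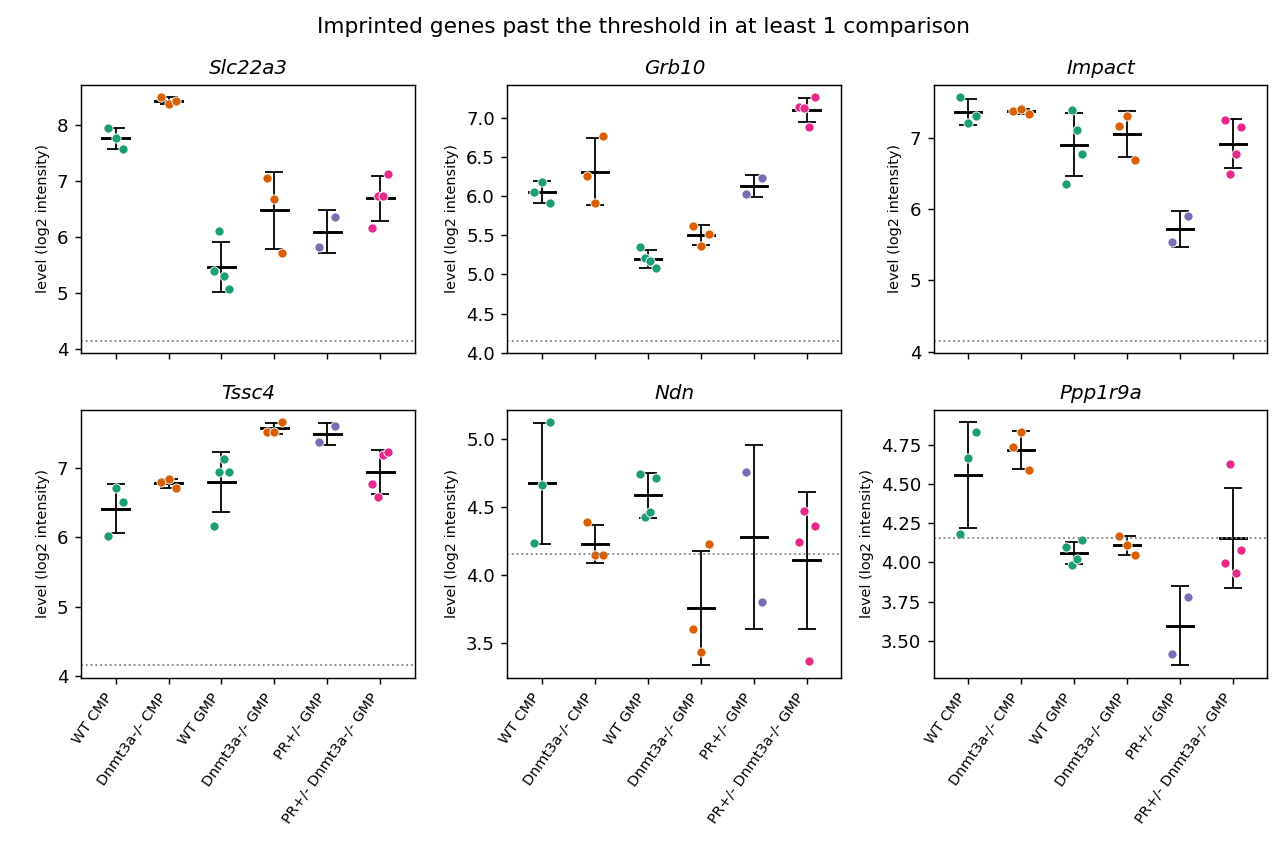
Log2 level of the 6 imprinted genes that passed the threshold in at least 1 comparison, on each array by group (points), with the group mean (bar) and SD (whiskers); the dotted line is the background level of 4.15 and the vertical scale differs between genes. Slc22a3 is higher in CMP than in GMP of both genotypes, Grb10 is highest in PR+/- Dnmt3a-/- GMP and Impact is lowest in the 2 PR+/- arrays.

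When Dnmt3a was also absent from PR+/- GMP, no imprinted gene passed the threshold in the fit of 6 arrays, and neither did any of the 15781 genes (0%). At an unadjusted p under 0.05, 4 of the 33 genes were higher and 2 lower, against 7.96% of all genes. The groups did not overlap for Grb10, Impact, Ascl2 and Ppp1r9a on the higher side and Phlda2, Tssc4 and Peg12 on the lower, which are 7 of 33 genes, against 20.6% of all genes. Both comparisons with PR+/- GMP rest on its 2 arrays.

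Impact was at 7.26, 6.50, 6.78 and 7.16 in PR+/- Dnmt3a-/- GMP, all above the 2 PR+/- arrays and within the wild-type GMP range. The difference was 1.20 ± 0.25 (2.30-fold, adjusted p = 0.478), and all 14 probe sets were higher. It rests on the same 2 PR+/- arrays as the difference from the wild type. Grb10 was at 7.13, 7.12, 6.89 and 7.27, all above PR+/- and above the other 5 groups' arrays, with a difference of 0.97 ± 0.17 (1.96-fold, adjusted p = 0.478) and 20 of 21 probe sets higher. Grb10 was the only imprinted gene to pass when all 19 arrays shared 1 fit (adjusted p = 0.0499). Without PR, the Grb10 difference of Dnmt3a-/- from wild-type GMP was 0.30 ± 0.17 (adjusted p = 0.359), and the difference between both effects, 0.67 ± 0.20, did not pass (adjusted p = 0.222). For Impact that difference between effects was 1.06 ± 0.39 (adjusted p = 0.275).

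Markers of maturing cells differed between the same PR+/- groups. Primary granule genes stood at 11.85 and 11.86 in PR+/- and at 10.39 to 11.37 in PR+/- Dnmt3a-/-, the 9 measured monocyte and macrophage genes at 7.03 to 7.23 and 6.55 to 6.84, and the neutrophil maturation genes at 9.77 to 9.87 and 8.49 to 9.51. Their part in the differences of Grb10 and Impact was not tested. Without PR+/- Dnmt3a-/- replicates 1 and 2, which had the high immediate early level, the differences were 1.25 for Impact and 0.95 for Grb10 (adjusted p = 0.481 and 0.509).

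Tssc4 went the other way from its difference in GMP without PR. It was at 6.76, 6.58, 7.19 and 7.23 in PR+/- Dnmt3a-/- GMP, below both PR+/- arrays (-0.54 ± 0.23, adjusted p = 0.624), and all 6 probe sets were lower. The difference between both Dnmt3a-/- effects was -1.31 ± 0.34 and did not pass the threshold (adjusted p = 0.186). Of the 33 genes none passed that test, where 0.0317% of all genes did, and at an unadjusted p under 0.05 there were 2 higher and 1 lower (14% of all genes). Phlda2 was at 4.90 and 5.34 in PR+/- and at 4.65, 4.71, 4.14 and 4.18 in PR+/- Dnmt3a-/- GMP, which do not overlap (-0.70 ± 0.24, adjusted p = 0.620). Airn was at 4.57 and 4.37 in PR+/- and at 4.41, 5.04, 4.84 and 4.31 in PR+/- Dnmt3a-/-, which overlap, and its difference between both effects was 0.72 ± 0.42 (adjusted p = 0.458). Cd81 was at 9.92 and 10.30 in PR+/- and at 10.44, 10.23, 10.46 and 10.23 in PR+/- Dnmt3a-/-, which overlap (0.23 ± 0.18, adjusted p = 0.715). Slc22a3 was at 5.83 and 6.36 in PR+/- and at 6.16, 6.73, 6.73 and 7.13 in PR+/- Dnmt3a-/-, which overlap (0.59 ± 0.28, adjusted p = 0.633). Ndn was at 4.76 and 3.80 in PR+/- and at 4.24, 4.47, 3.36 and 4.36 in PR+/- Dnmt3a-/-, which overlap. The PR+/- Dnmt3a-/- mean of Ndn, 4.11, was below background. Its 2 probe sets went opposite ways, with differences of -1.11 for the 1 above background and 0.77 for the other.

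**Figure D4:**
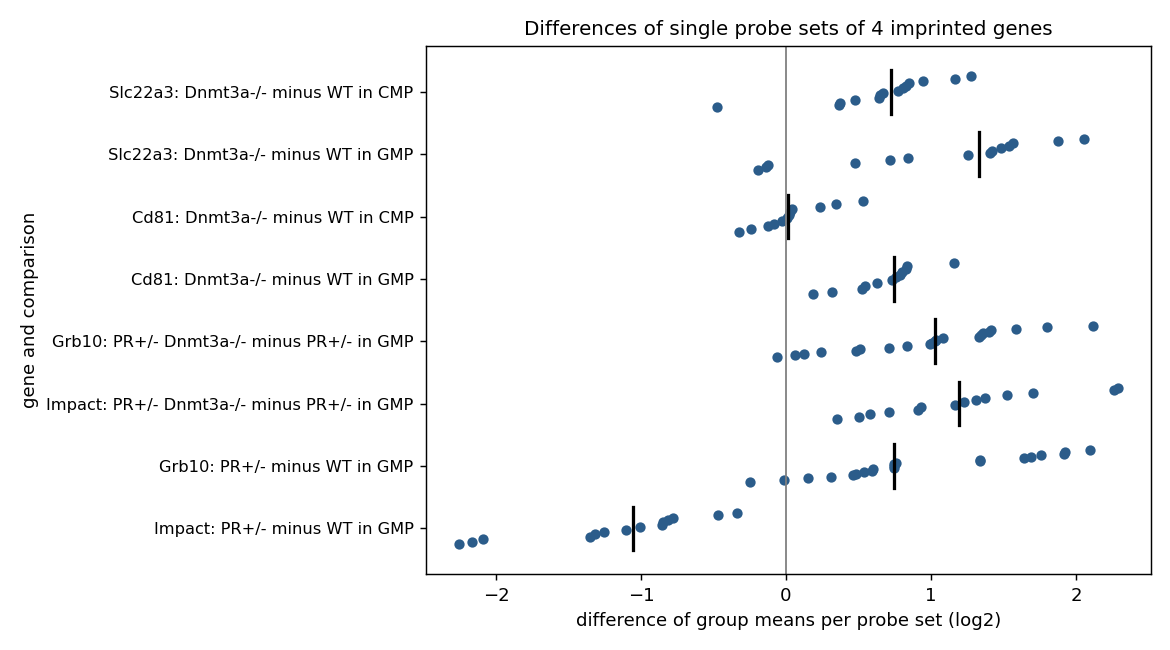
Difference of group means of each single probe set (points) of Slc22a3, Cd81, Grb10 and Impact in the named comparisons, on the log2 scale, with the median over the probe sets of the gene (bar). All 12 Cd81 probe sets lie above 0 in GMP and 7 of 12 in CMP, and all 14 Impact probe sets lie below 0 for PR+/- minus WT and above 0 for PR+/- Dnmt3a-/- minus PR+/-.

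Among genes that set or keep imprints, 23 of 27 listed were measured. With Dnmt3a absent none rose and Dnmt3a alone fell, in CMP, in GMP and averaged over both. Of all genes 1.28%, 1.33% and 5.75% passed in these comparisons. Dnmt3b, the related methyltransferase, was lower in wild-type GMP than in wild-type CMP (-0.60 ± 0.13, adjusted p = 0.0165). Uhrf1, the partner of Dnmt1 that recognises hemimethylated DNA, was higher in Dnmt3a-/- GMP than in Dnmt3a-/- CMP (0.61 ± 0.17, adjusted p = 0.0398). Setdb1, a histone methyltransferase that works at imprints, was lower in PR+/- than in wild-type GMP (-0.64 ± 0.16, adjusted p = 0.0444). It was the only one of the 23 past the threshold in that comparison, where 3.07% of all genes passed. Of the 23, 16 were below 0 (49.7% of all genes), with a median of -0.19 beside 0.0025 over all genes. In 11 no PR+/- array reached the wild-type range, all on the lower side, against 28.5% of all genes in either direction.

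Of 32 further imprinted genes outside the list of 40, 22 were measured. With Dnmt3a absent 1 rose in CMP (1.28% of all genes passed) and none in GMP (1.33% passed). Averaged over both cell types 2 rose (3.54% of all genes). None fell in CMP, in GMP or on average, where 2.21% of all genes fell on average. Htr2a, a serotonin receptor gene, was at 5.41, 5.22 and 5.23 in wild-type CMP and at 5.80, 6.00 and 6.15 in Dnmt3a-/- CMP, without overlap (0.70 ± 0.15, adjusted p = 0.0459), and averaged 0.64 ± 0.10 over both cell types (adjusted p = 0.00438). It was also lower in GMP than in CMP, with differences of -0.76 ± 0.14 in the wild type and -0.86 ± 0.15 in Dnmt3a-/- (adjusted p = 0.00842 and 0.00240). Tspan32, a tetraspanin gene of blood cells in the Kcnq1 domain, averaged 0.58 ± 0.13 (adjusted p = 0.0202). Gab1, a signalling adaptor, was lower in GMP than in CMP of both genotypes (-0.90 ± 0.21 and -0.99 ± 0.22, adjusted p = 0.0256 and 0.0109). Qpct, a glutaminyl cyclase gene, passed the threshold between Dnmt3a-/- GMP and CMP (adjusted p = 0.0109), but its mean was below background in all groups, so no difference is given. Osbpl5, a lipid transfer gene of the Kcnq1 domain, was higher in PR+/- than in wild-type GMP (0.90 ± 0.20, adjusted p = 0.0268).

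Of 32 genes that neighbour imprinted domains without being known as imprinted, 25 were measured. With Dnmt3a absent 1 rose in CMP (1.28% of all genes passed) and none in GMP (1.33% passed). On average 2 rose (3.54% of all genes). None fell in CMP, in GMP or on average, where 2.21% of all genes fell on average. Lsp1, an actin-binding protein gene of leukocytes near H19, rose by 0.71 ± 0.14 in CMP (adjusted p = 0.0244) and 0.47 ± 0.09 on average (adjusted p = 0.0129), and was lower in GMP than in CMP of both genotypes (-0.66 ± 0.13 and -1.15 ± 0.14, adjusted p = 0.0101 and 1.79e-04). Ppp2r5c, a phosphatase subunit gene near the Dlk1-Dio3 domain, averaged 0.44 ± 0.11 (adjusted p = 0.0385). Tnni2, a muscle troponin gene near Lsp1, was lower in Dnmt3a-/- GMP than in Dnmt3a-/- CMP (-1.28 ± 0.24, adjusted p = 0.00320).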

How the data were processed

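RNA of sorted progenitors was hybridised to 19 Affymetrix mouse exon arrays, 1 per sample. The authors deposited 1 linear intensity for each of 194293 probe sets and array, from 1.34 to 16208, which is not a count. Per the submitters' processing notes, which state no role or version, the names attached to the data are RMA, Partek and mm9. The choice of probe sets was not given in the sources used here. The values were used as deposited, on the log2 scale. Probe sets with several symbols (1328) or none (13469) were left out. Symbols were updated through RefSeq names (13727 found as annotated, 2039 through a synonym, 37 kept).

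Groups were compared with limma 3.58.1 in R 4.3.3 (lmFit and eBayes, two-sided, checked on simulated data), with Benjamini-Hochberg adjustment over 15781 genes and a threshold of 0.05. Comparisons among wild-type and Dnmt3a-/- arrays used 1 fit of 13 arrays, that of PR+/- Dnmt3a-/- with PR+/- its 6 arrays, and the others with PR+/- the 13 GMP arrays. Wild-type and Dnmt3a-/- replicates are numbered by the order of their title numbers, and PR+/- replicates as labelled. The number of arrays limits the precision. No 2 arrays were alike beyond 0.0288% of identical values. PR+/- replicates of the same number did not deviate together (r = 0.0774 and 0.0169), so they were not paired. Dnmt3a-/- CMP and GMP arrays of adjacent title numbers did deviate together (r = 0.121, 0.139 and 0.171, against at most 0.0305 for the other pairs). No label says that these share a mouse, so they were blocked as an alternative, and the block ended both calls of the average over CMP and GMP.

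The members and lists were chosen with earlier results of these data known. Values per array are given for genes that passed in any comparison and, where fewer than 3 passed, for the 3 genes above background with the largest differences. Genes of the other lists are named where they passed. For genes given array by array, a difference with 1 group mean below background is also given against that level. Alternatives were the median or the brighter of a gene's probe sets, centred or quantile-normalised arrays, other sets of arrays in the fit, array weights, a filter on dim genes, the Y-linked level as covariate, blocks and leaving out arrays.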

Additional observations from a re-analysis of the deposited data

Results flagged for a closer look

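Ascl2, a transcription factor gene of the Kcnq1 domain that is needed in the placenta, had a level of 4.84 in PR+/- Dnmt3a-/- GMP replicate 4, where the other 3 arrays of the group lay closely together at 4.90. It stood out because the gap was wide against that narrow range. It was the only such sample in 66 groups of 4 arrays examined, and chance gives about 1 in 20.

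Tssc4 is listed because its Dnmt3a-/- difference took opposite directions with and without PR, with no overlap of the genotypes in either background. The difference between both effects was -1.31 on the log2 scale and did not pass the threshold (limma adjusted p = 0.186).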

How the results depend on the processing

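Counts are of imprinted genes past the threshold. In Dnmt3a-/- against wild-type GMP none passed, but 1 did on the brighter of a gene's probe sets (Tssc4), 1 with all 19 arrays in 1 fit and 1 without the 3 wild-type arrays of the lowest title numbers (Cd81 in both), and 6 with array weights (Cd81, Dlk1, Meg3, Ndn, Slc22a3 and Tssc4). Of all genes there, 1.33% passed, and 0.855%, 1.3%, 1.41% and 11% in these 4 alternatives. Leaving out 1 array gave 0 to 2. Averaged over CMP and GMP, 2 passed, where 5.75% of all genes did. The counts were 7 with array weights (20.6% of all genes), 4 without those 3 wild-type arrays (7.99%), 0 with the Y-linked level as a covariate (0.881%), 0 with a random block (3.75%) and 0 to 3 without 1 array. Ndn was also lost on the median or the brighter probe sets and with all 19 arrays in 1 fit. For GMP against CMP, 2 passed in the wild type (1 to 2 without 1 array) and 4 in Dnmt3a-/- (9 with array weights, where 24.4% of all genes passed against 10.1%, and 1 to 2 without 1 array). Grb10 lost its wild-type call on the brighter probe sets and without the 3 wild-type arrays (adjusted p = 0.137 and 0.0908), and its Dnmt3a-/- call on the median (0.134). For PR+/- against wild-type GMP, 2 passed, against 1 on the median of the probe sets, 1 on centred arrays and 1 with only the groups compared (Grb10 in each), 0 on the brighter probe sets and 0 to 2 without 1 array. For PR+/- Dnmt3a-/- against PR+/- none passed, against 1 with all 19 arrays in 1 fit (Grb10). With the replicate number as a block the count was 0, with adjusted p = 0.179 for Grb10 and 0.227 for Impact. The Airn differences turned on the brighter probe sets, from -0.60 to 0.012 between cell types and from 0.72 to -0.42 between backgrounds. The count stayed at 0 in every alternative for Dnmt3a-/- against wild-type CMP and for both differences between effects. The causes of these shifts were not tested. The number of arrays, 2 to 4 a group, and levels near background limit the precision.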

Other observations

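Snrpn, which encodes a splicing protein from the paternal copy, shares 2 probe sets with Snurf. Their average had group means of 3.47 to 4.05, with 3.80 ± 0.47 (SD, n = 3) in wild-type and 3.47 ± 0.23 (n = 3) in Dnmt3a-/- CMP. These means join 2 unlike probe sets. Of these, 1 lay at 0.85 to 2.57 over the arrays. The other lay at 4.84 to 6.50, above the background level of 4.15 on every array.

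Gnas, the gene of the stimulatory G protein alpha subunit, was among the steadiest genes of the list. Its group means ran from 6.97 to 7.16, and its differences in Dnmt3a-/- were 0.05 ± 0.13 (SE) in CMP and -0.08 ± 0.12 in GMP. Cdkn1c had group means of 5.30 to 5.6 and Ube3a of 7.23 to 7.66. The median SD of the 33 genes within a group was 0.12 in Dnmt3a-/- CMP, 0.19 in wild-type CMP, 0.21 in wild-type GMP and in PR+/- GMP, 0.26 in Dnmt3a-/- GMP and 0.29 in PR+/- Dnmt3a-/- GMP.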
